A study of Homo sapiens with 10 samples.

Results

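Genes of the actomyosin cytoskeleton, its stress fibres and the focal adhesions that anchor them were compared between replicatively senescent and proliferating IMR90 cells, a line of human fetal lung fibroblasts with a limited life span. A list of 36 genes was used, and every probe set that the platform annotation assigned to exactly 1 of them was taken, which gave 120 of the 54675 probe sets on the array, for 33 of the 19775 genes named there. No probe set was matched to TPM3, FLNA or FLNC, and these genes were not analysed here. Senescent cells, at 90 population doublings, had been passaged until growth ceased and were then kept in dishes for 2 weeks, and their RNA was hybridised to 5 arrays. Senescence had been judged from raised p16, lowered cyclin genes and staining for senescence-associated beta-galactosidase, per the labels. Proliferating cells, at 28 population doublings, gave the other 5 arrays. All cells were of the same line and were grown in 3% oxygen with 10% serum, with no knockdown, transgene or drug named in the labels, so doublings, time in culture and growth state differ together. Whether the 5 arrays of a group stand for separate cultures is not stated in the labels, so the p-values below describe no more than the spread among these samples, part or all of which may be technical. In RNA from whole dishes, fewer cells of a type and less RNA per cell cannot be told apart.

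Stress fibres are bundles of actin filaments that contract when bipolar filaments of myosin II pull on them. Contraction is switched on by phosphorylation of the regulatory light chains, which myosin light chain kinase adds and myosin phosphatase removes, while tropomyosins, caldesmon and calponins on the actin filament tune its access to myosin. The bundles are held together by alpha-actinins, filamins and palladin and end in focal adhesions, where talin and vinculin couple them to integrins. Many of these genes have smooth muscle forms, which activated fibroblasts also use, and forms found in most cells. A large share of them are textbook targets of SRF, a transcription factor that binds a DNA element named the CArG box together with myocardin or the actin-sensing coactivators MRTFA and MRTFB.

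The CArG box was searched in RefSeq promoter windows of GRCh38.p14, each holding 250 bases before and 50 after an annotated start. Its consensus is its own reverse complement, so a search of one strand covers both, and only perfect copies of its 10 letters were counted. It was found in a window of 8 of the 30 member genes that have one (26.7%), against 1.60% of all 27305 genes with a window, and the members include genes known as SRF targets. No window was found for TAGLN, MYL9 or MYH11, so these genes were not searched. The genes with a box comprised 4 that were higher in senescent cells (ACTC1, ACTG2, ACTN1 and MYLK), 3 that were lower (CNN2, SRF and TPM4) and LPP, which was not called. The same element stands before annotated starts of genes that moved in opposite ways. Stretches upstream of such starts are shown for 3 genes of each direction. They are written 5′ to 3′ on the strand of the gene, with each CArG box in capitals.
ACTC1, chr15:34795634-34795673, minus strand: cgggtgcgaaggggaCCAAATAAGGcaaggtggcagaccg
ACTG2, chr2:73892883-73892959, plus strand: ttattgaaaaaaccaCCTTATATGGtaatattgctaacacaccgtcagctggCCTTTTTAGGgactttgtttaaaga
MYLK, chr3:123620618-123620657, minus strand: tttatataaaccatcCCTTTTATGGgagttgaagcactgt
CNN2, chr19:1026504-1026543, plus strand: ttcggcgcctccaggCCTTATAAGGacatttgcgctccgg
SRF, chr6:43171224-43171268, plus strand: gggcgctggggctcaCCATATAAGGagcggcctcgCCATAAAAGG
TPM4, chr19:16067350-16067389, plus strand: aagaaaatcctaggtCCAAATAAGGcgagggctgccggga
The 30 genes have 65 distinct windows, since several have more than 1 annotated start, and the arrays do not tell which start was used. An annotated start can be that of a shorter transcript form. The MYLK start was not matched to the transcript that encodes the kinase. By direction, a box was found for 4 of 13 higher, 3 of 9 lower and 1 of 8 genes that were not called. A second element, CATTCC, read on either strand as CATTCC or GGAATG and known as the core of the TEAD site, was found for 16 of the 30 genes (53.3%) against 16.7% of all genes, among them 10 of the 13 higher, 3 of the 9 lower and 3 of the 8 genes not called. Members have more windows per gene than other genes, and per window the shares were 30.8% of 65 against 14.0% of 35093, and for the CArG box 12.3% against 1.29%. By direction, CATTCC was in 12 of 30 windows of higher genes (40%), 4 of 17 of lower genes (23.5%) and 4 of 18 of genes not called (22.2%). A match says only that the letters are in the window.

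Values are deposited log2 values, so a difference of 1 is 2-fold, and tests were run on probe sets whose values exceeded the 40th percentile of the array (2.66 to 2.74) on at least 5 arrays. The tested probe sets numbered 32732 of the whole array and 103 of the 120 members. Column medians lay between 3.05 and 3.12, and arrays correlated over tested probe sets at 0.992 to 0.997 within a group and at 0.940 to 0.947 across groups. All 20 fibroblast markers on the fixed list were tested, including COL1A1 at 15.27 ± 0.07 in senescent and 15.47 ± 0.13 in proliferating cells (SD, n = 5 each). Of 15 striated muscle markers 14 lay below the 40th percentile on every array, as did 3 of 15 smooth muscle and pericyte markers, and the intermediate filament gene of muscle, DES, lay below it on all 5 senescent arrays and on 1 proliferating array. The mean level of the smooth muscle and pericyte list was 5.90 to 5.94 on senescent and 5.59 to 5.85 on proliferating arrays, with 4 of its 11 tested genes higher and 4 lower. This list holds 4 members (ACTG2, LMOD1, CNN1 and MYH11), and without them it averaged 5.25 to 5.33 on senescent and 4.92 to 5.17 on proliferating arrays, with 2 of 7 tested genes higher and 3 lower. Markers of other cells lay below the 40th percentile on every array for 6 of 12 epithelial, 7 of 10 endothelial and 5 of 8 leukocyte genes, and the part of any other cells in the results was not tested. The epithelial list averaged 4.48 to 4.61 on senescent and 4.56 to 4.63 on proliferating arrays, with 2 of its 5 tested genes higher and 3 lower, the endothelial list 3.16 to 3.22 on senescent and 3.06 to 3.14 on proliferating arrays, with 1 of 3 higher, and the leukocyte list 2.32 to 2.40 on senescent and 2.32 to 2.35 on proliferating arrays, with none of 2 called. These list means hide brighter genes. The epithelial marker CLDN1 averaged 13.23 ± 0.04 in senescent and 10.18 ± 0.37 in proliferating cells (SD, n = 5 each) and was called higher. The endothelial marker TEK, at 10.52 ± 0.12 and 9.90 ± 0.18, was also higher, and the epithelial marker KRT18, at 9.43 ± 0.09 and 9.89 ± 0.17, was lower. Of the fibroblast markers 5 were higher and 8 lower. Signal at the 3′ end of ACTB relative to its 5′ end, a sign of RNA integrity given as a log2 difference, was 2.32 ± 0.10 in senescent and 2.07 ± 0.14 in proliferating samples (SD, n = 5 each) without overlap. The same measure of GAPDH was 0.12 ± 0.09 in senescent and -0.03 ± 0.18 in proliferating samples (SD, n = 5 each) and overlapped (exact permutation p = 0.13), while its 3′ end relative to its middle, 1.48 ± 0.06 in senescent and 1.25 ± 0.14 in proliferating samples, did not overlap (exact permutation p = 0.00794). The part of RNA quality in the results was not tested beyond a fit with the ACTB measure as a covariate. Since that measure did not overlap between the groups, the fit cannot fully tell RNA quality and growth state apart. A call lost in it does not show that RNA quality made the difference.

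Of the 103 tested probe sets 47 were higher and 25 lower in senescent cells (limma, Benjamini-Hochberg adjusted over all tested probe sets, threshold 0.05). These 69.9% compare with 53.0% of tested probe sets called over the whole array, 26.9% higher and 26.2% lower. Groups did not overlap for 59 member probe sets, against 44.5% of all. Probe sets that were called and differed at least 2-fold numbered 17 higher and 5 lower, against 9.04% and 8.80% of all. The 17 include 7 probe sets of SYNPO2 and 3 of LIMCH1, so they do not count separate genes. When a gene was read from the brightest of its tested probe sets, all 33 could be tested, and 15 were higher, 10 lower and 8 not called. That is 75.8% called, against 60.2% of all 12909 genes (30.5% higher and 29.8% lower). The median difference was 0.07 over member genes and 0.04 over all genes. Most called differences were small, with 15 of 25 under 0.5, 6 between 0.5 and 1 and 4 at 1 or more. At least 2-fold higher were 3 of the 33 member genes, against 10.0% of all genes, and at least 2-fold lower 1 of 33, against 10.2% of all genes. By gene, large changes were thus no more frequent among members than among all genes. Groups did not overlap for 22 of the 33 genes, against 51.8% of all genes. The shares depend on the filter. With the filter at the 60th percentile ACTC1 was no longer tested, and of the other member genes 13 were higher and 10 lower. There 72.8% of all 9903 tested genes were called, 36.4% higher and 36.4% lower. Under that filter the members were called about as often as all genes. With the ACTB control as a covariate, 39 member probe sets were higher and 14 lower, where 40.6% of all tested probe sets were called and 20.6% were lower. In that fit 11 member genes were higher and 6 lower, against 22.6% and 25.1% of all genes. With arrays centred on the housekeeping list 35 member probe sets were higher and 25 lower, against 21.5% and 31.2% of all, and 10 member genes were higher and 10 lower, against 24.4% and 34.5% of all genes. That list was not stable itself. Of its 23 tested genes 4 were higher and 11 lower before centring (65.2% called, against 60.2% of all genes).

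**Figure D1:**
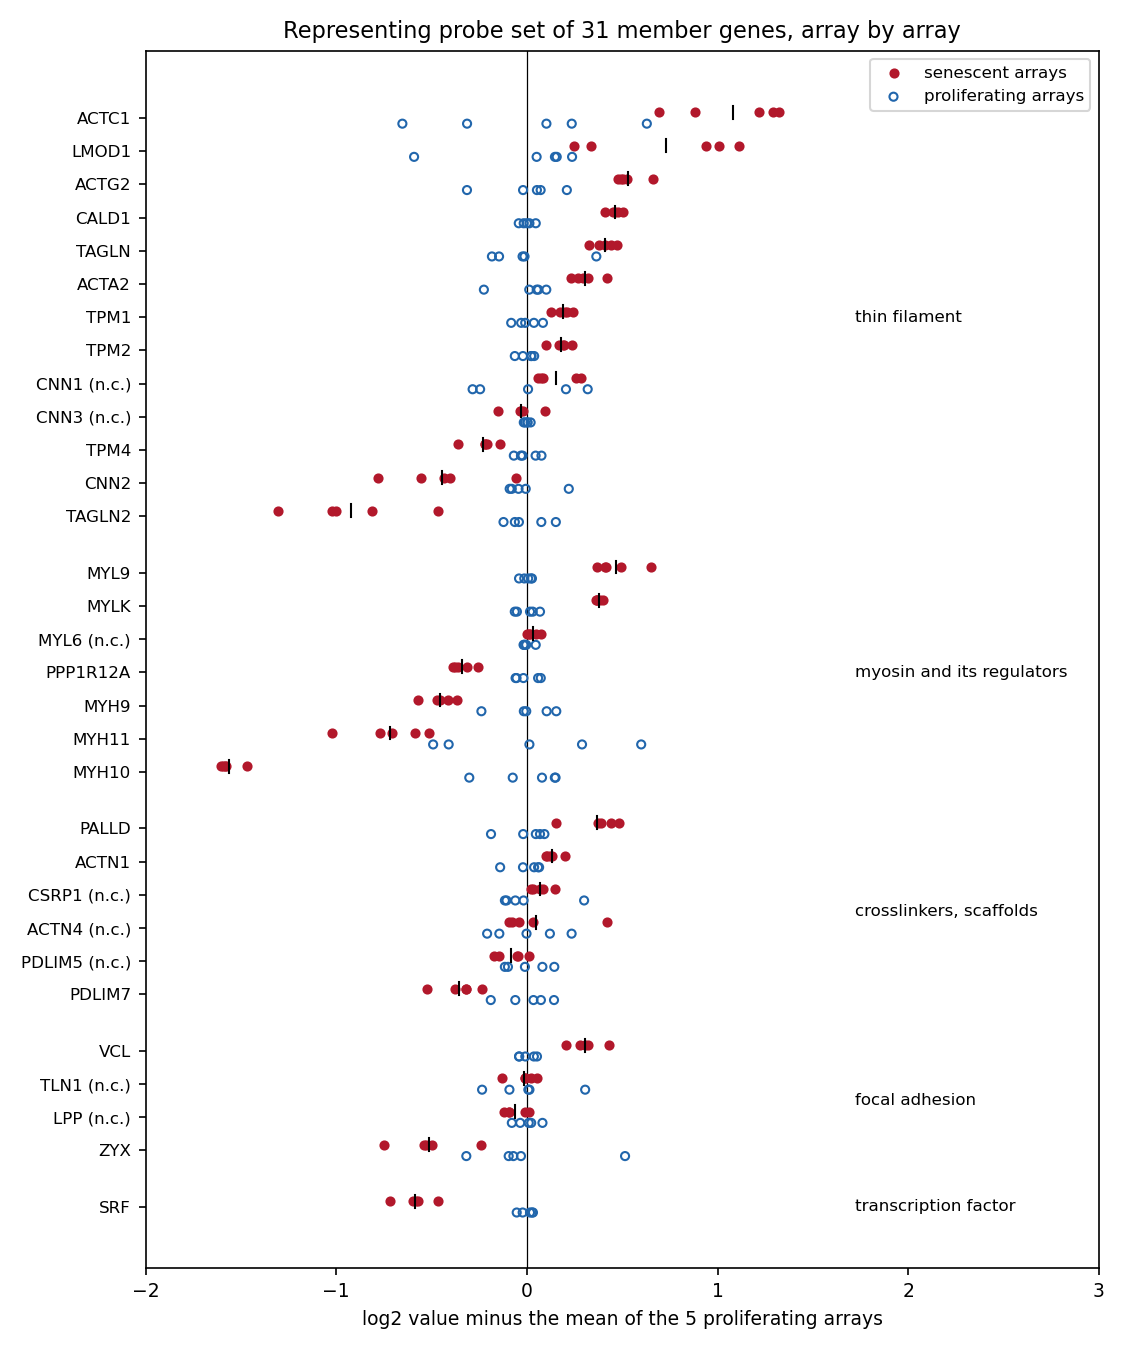
Each row is the representing probe set of a member gene (LIMCH1 and SYNPO2 excepted), grouped by role, and the horizontal axis is its log2 value minus the mean of the 5 proliferating arrays. Filled red points are the 5 senescent arrays, open blue points the 5 proliferating arrays, the black bar is the senescent mean and n.c. marks genes that were not called. Senescent points lie to the right for actins, TAGLN, CALD1, MYL9 and MYLK, and to the left for TAGLN2, MYH10, MYH9, SRF and PPP1R12A.

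Smooth muscle and cardiac actin genes rose. ACTA2, which encodes smooth muscle alpha-actin, the usual mark of a contractile fibroblast, read 13.41, 13.43, 13.56, 13.46 and 13.37 on senescent arrays 1 to 5, against 13.24, 13.19, 13.20, 13.15 and 12.91 on proliferating arrays 1 to 5. Every senescent value lay above every proliferating one, yet the log2 difference was only 0.31 (SE 0.07), which is 1.24-fold (limma's adjusted p = 0.0030). ACTG2, the gamma form of smooth muscle actin, read 13.23, 13.26, 13.42, 13.28 and 13.24 in senescent cells, against 12.96, 12.73, 12.80, 12.82 and 12.44 in proliferating cells. The groups were again apart, by 0.53 (SE 0.09, limma's adjusted p = 0.00056). ACTC1, the alpha-actin of heart muscle, read 4.88, 5.29, 4.68, 5.31 and 5.21 in senescent cells, against 4.09, 3.34, 4.23, 3.68 and 4.62 in proliferating cells, where all values were below the array's 60th percentile. Its groups just failed to touch, and it rose by 1.08 (SE 0.23, 2.12-fold, limma's adjusted p = 0.0027). The ACTA2 call was lost with housekeeping centring of the arrays (adjusted p = 0.098), with the ACTB covariate (adjusted p = 0.098) and with the mean of its 3 probe sets (adjusted p = 0.34), the other 2 of which had weak signal. The ACTC1 call was lost with the ACTB covariate (adjusted p = 0.067).

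The transgelins, small actin-bundling proteins, moved apart. TAGLN, the smooth muscle form known as SM22, was higher on all 3 of its probe sets. The brightest read 12.18, 12.30, 12.23, 12.33 and 12.27 in senescent cells, against 11.83, 12.22, 11.67, 11.84 and 11.71 in proliferating cells, where array 2 stood inside the senescent range. Its difference was 0.41 (SE 0.10, limma's adjusted p = 0.0046; adjusted p = 0.056 with housekeeping centring), while the only probe set of the gene not named as shared with other transcripts, at a level near 6, differed by 1.89 (SE 0.10, 3.72-fold). TAGLN2, the form found in most cells, went the other way on both of its probe sets. It read 11.34, 11.14, 10.84, 11.12 and 11.68 in senescent cells, against 12.08, 12.30, 12.02, 12.11 and 12.22 in proliferating cells. All senescent values were lower, and the gene fell by 0.92 (SE 0.14, limma's adjusted p = 0.00022).

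The calponins, which bind actin and slow the myosin motor, showed no shared direction. CNN2, the form of non-muscle cells, averaged 11.22 ± 0.26 in senescent and 11.67 ± 0.13 in proliferating cells (SD, n = 5 each) and fell by 0.45 (SE 0.12, limma's adjusted p = 0.011). With the ACTB covariate its difference was -0.12 (adjusted p = 0.52). CNN1, the smooth muscle form, averaged 6.68 ± 0.11 in senescent and 6.53 ± 0.27 in proliferating cells (SD, n = 5 each) and was not called (difference 0.15, SE 0.12, limma's adjusted p = 0.31). CNN3 differed by -0.03 (SE 0.05) on its brighter probe set and by 0.08 (SE 0.04) on the other, neither of them called.

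Tropomyosins, the coiled-coil proteins that lie along actin filaments, also divided by gene. TPM1 was higher on 5 of 6 probe sets and TPM2 on all 3 that were tested, while TPM4 was lower on 3 of 5. The brightest TPM2 probe set read 14.89, 14.98, 14.98, 14.96 and 15.02 in senescent cells, against 14.81, 14.81, 14.77, 14.72 and 14.82 in proliferating cells, a difference of 0.18 (SE 0.04, limma's adjusted p = 0.0032). A dimmer one lay between 11.99 and 12.21 in senescent cells, against 10.42 to 10.67 in proliferating cells. The groups lay far apart there, with a difference of 1.54 (SE 0.07, 2.90-fold, limma's adjusted p = 3.8e-08). TPM1 showed the same spread, from 0.19 (SE 0.04, limma's adjusted p = 0.0037) on its brightest probe set to 2.29-fold (limma's adjusted p = 4.8e-07) on another. TPM4, the tropomyosin gene of non-muscle filaments, fell by 0.23 (SE 0.05, limma's adjusted p = 0.0030) on its brightest probe set, at 15.27 ± 0.08 in senescent and 15.50 ± 0.06 in proliferating cells (SD, n = 5 each), and by 0.77 (SE 0.04) on a dimmer one. On the brightest probe sets the calls of TPM1 and TPM2 were lost with housekeeping centring (adjusted p = 0.26 and 0.33), that of TPM2 with quantile normalisation (adjusted p = 0.052) and that of TPM4 with the ACTB covariate (adjusted p = 0.064).

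CALD1, which encodes caldesmon, an actin-bound brake on the myosin motor, was measured by 11 probe sets, of which 8 were higher, 1 was not called and 2 were not tested. The brightest read 14.46, 14.55, 14.51, 14.52 and 14.49 in senescent cells, against 14.09, 14.06, 14.03, 14.00 and 14.04 in proliferating cells. The groups were tight and did not overlap, and the difference was 0.46 (SE 0.04, limma's adjusted p = 1.8e-06). The 8 called probe sets differed by 0.15 to 1.52. LMOD1, the leiomodin of smooth muscle, which nucleates actin filaments, read 5.93, 5.06, 5.75, 5.15 and 5.82 in senescent cells, against 4.86, 4.97, 4.96, 5.05 and 4.22 in proliferating cells. Its groups nearly touched, and it rose by 0.73 (SE 0.22, limma's adjusted p = 0.016), a call lost with the ACTB covariate (adjusted p = 0.26) and without proliferating 2 and senescent 5 (adjusted p = 0.052). In all, 8 of the 13 thin-filament genes rose, 3 fell and 2 were not called, where 30.5% of all genes were called higher and 29.8% lower.

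Heavy chains of non-muscle myosin II fell. MYH10, which encodes the IIB heavy chain, read 10.60, 10.61, 10.62, 10.59 and 10.73 on its brighter probe set in senescent cells, against 12.34, 11.89, 12.35, 12.28 and 12.12 in proliferating cells. No other member gene fell as far, and the difference was -1.56 (SE 0.09, limma's adjusted p = 1.6e-07), which is 2.96-fold lower. The other probe set differed by -1.90 (SE 0.09). MYH9, which encodes the IIA heavy chain, read 10.37, 10.38, 10.27, 10.47 and 10.43 in senescent cells, against 10.99, 10.94, 10.82, 10.84 and 10.60 in proliferating cells. It fell by 0.45 (SE 0.07, limma's adjusted p = 0.00048), again without overlap.

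MYH11, the heavy chain gene of smooth muscle, had probe sets that disagreed. The brightest read 4.92, 5.23, 5.43, 5.35 and 5.17 in senescent cells, against 5.53, 6.54, 5.95, 5.45 and 6.23 in proliferating cells, a difference of -0.72 (SE 0.21, limma's adjusted p = 0.013). The other 3 tested probe sets, all named as able to bind similar transcripts, were higher by 0.27, 0.55 and 0.71 (limma's adjusted p = 0.023, 0.00022 and 0.0032). The mean of its probe sets differed by 0.20 (adjusted p = 0.018), the reverse of the brightest, and with the ACTB covariate the brightest was at -0.34 (adjusted p = 0.40).

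The regulatory light chain gene MYL9 and the kinase gene MYLK rose, and the phosphatase subunit gene PPP1R12A fell. MYL9, the regulatory light chain of smooth muscle and of contractile fibroblasts, read 13.31, 13.40, 13.27, 13.31 and 13.55 in senescent cells, against 12.92, 12.93, 12.89, 12.86 and 12.91 in proliferating cells. The difference was 0.47 (SE 0.06, limma's adjusted p = 4.6e-05), measured on a shared probe set, whereas its other probe set differed by 0.02 (SE 0.06, limma's adjusted p = 0.78) at a level near 6. The essential light chain gene MYL6 differed by 0.03 (SE 0.03, limma's adjusted p = 0.46) on its brightest probe set and by 0.42 (SE 0.10, limma's adjusted p = 0.0059) on the other. MYLK, the gene of the myosin light chain kinase, averaged 13.92 ± 0.01 in senescent and 13.54 ± 0.06 in proliferating cells (SD, n = 5 each) and rose by 0.38 (SE 0.04, limma's adjusted p = 1.4e-05), with a second bright probe set at 0.41 (SE 0.04) and a pair of dim ones not called. PPP1R12A, the myosin-targeting subunit of the phosphatase, averaged 12.30 ± 0.05 in senescent and 12.64 ± 0.06 in proliferating cells (SD, n = 5 each). It fell on all 3 of its probe sets, by 0.34 (SE 0.04, limma's adjusted p = 0.00010) on the brightest, by 0.44 (SE 0.09) and by 0.52 (SE 0.10).

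LIMCH1, whose product is known to bind and activate non-muscle myosin II, showed the largest difference of all member genes and ranked 12th among the increases of 12909 genes. Its brightest probe set read 10.19, 10.18, 10.18, 10.00 and 10.05 in senescent cells, against 4.42, 3.92, 4.18, 4.24 and 4.63 in proliferating cells. All proliferating values were under 4.73, the lowest 60th percentile among those arrays, so the size of the fold depends on the background correction. The difference was 5.84 (SE 0.12, 57.4-fold, limma's adjusted p = 1.9e-10). Of its other probe sets, 2 differed by 4.58 and 5.82, and the last had weak signal in both groups and was not called (0.16, SE 0.12).

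SYNPO2, which encodes synaptopodin 2, or myopodin, an actin-bundling scaffold of smooth and striated muscle, was the other member with a large increase. Its brightest probe set read 10.41, 10.33, 10.32, 10.47 and 10.52 in senescent cells, against 6.04, 6.55, 6.54, 6.43 and 6.48 in proliferating cells. That is a difference of 4.00 (SE 0.10, about 16-fold, limma's adjusted p = 6.4e-10). All 7 probe sets of the gene were higher, by 2.43 to 4.88, and none had overlapping groups. Of these, 3 dimmer probe sets, among them those with the lowest and the highest difference, lay below the 60th percentile on the proliferating arrays, so that their sizes depend on the background correction. For both LIMCH1 and SYNPO2 the call was kept under all 22 alternatives.

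**Figure D2:**
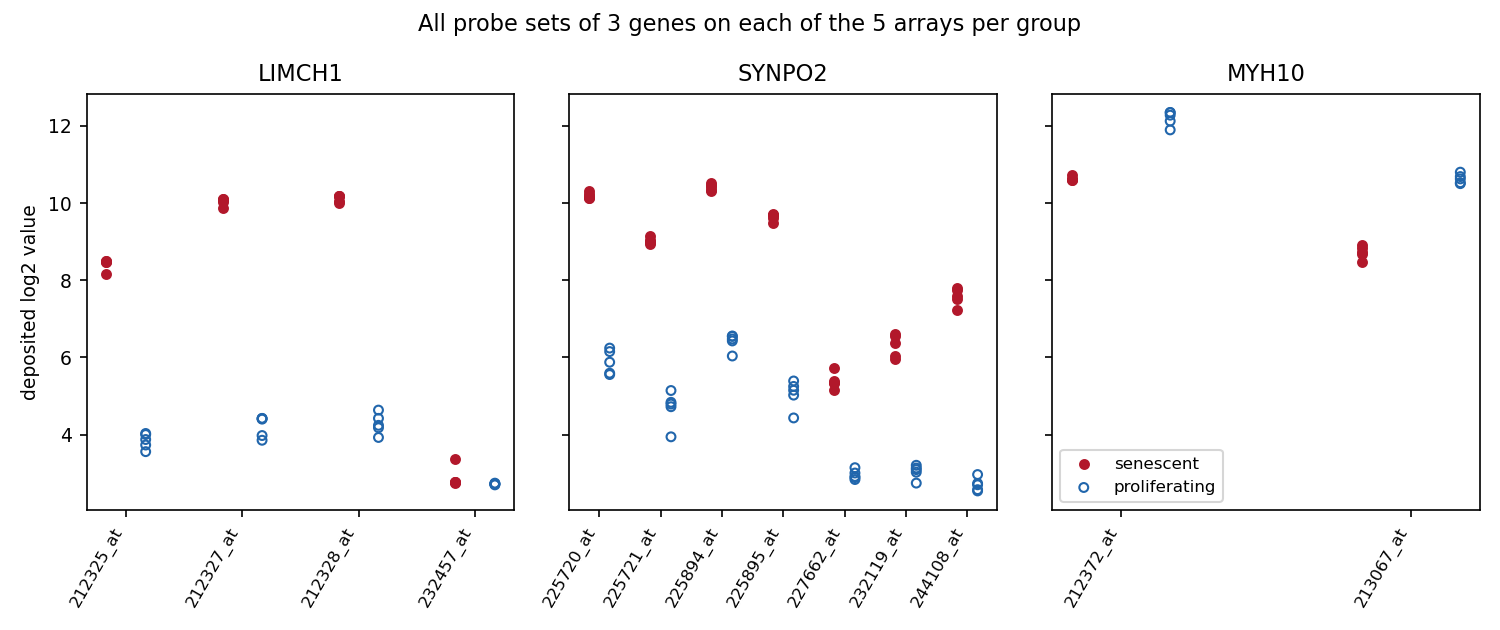
Deposited log2 values (vertical axis) of every probe set of LIMCH1, SYNPO2 and MYH10, with filled red points for the 5 senescent arrays and open blue points for the 5 proliferating arrays. Groups lie apart for 3 of 4 LIMCH1, all 7 SYNPO2 and both MYH10 probe sets, higher in senescent cells for LIMCH1 and SYNPO2 and lower for MYH10.

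On their brightest probe sets the other crosslinkers and scaffolds differed by less than 0.5 between groups. PALLD, which encodes palladin, a scaffold of dense regions along stress fibres, read 13.73, 13.69, 13.64, 13.62 and 13.40 on its brightest probe set in senescent cells, against 13.23, 13.34, 13.30, 13.32 and 13.06 in proliferating cells. It rose by 0.37 (SE 0.08, limma's adjusted p = 0.0020), and 2 further shared probe sets rose by 0.40 and 0.48. The remaining probe set read 4.28, 4.32, 4.22, 3.79 and 3.81 in senescent cells, against 5.57, 5.44, 5.23, 5.69 and 4.57 in proliferating cells. That one fell by 1.22 (SE 0.21, limma's adjusted p = 0.00065), and the mean of the 4 differed by 0.01 (adjusted p = 0.94). ACTN1, an alpha-actinin of stress fibres, averaged 13.36 ± 0.04 in senescent and 13.23 ± 0.09 in proliferating cells (SD, n = 5 each), a difference of 0.13 (SE 0.05, limma's adjusted p = 0.043) whose call was lost under 13 of 22 alternatives. ACTN4 (0.05, SE 0.12), PDLIM5 (-0.08, SE 0.06) and CSRP1 (0.07, SE 0.08) were not called on their brightest probe sets, although 4 of 8 tested PDLIM5 probe sets were lower and their mean was called (-0.36, adjusted p = 0.00021). CSRP1 was called higher without proliferating 2 (0.15, adjusted p = 0.019) and without both proliferating 2 and senescent 5 (0.16, adjusted p = 0.018), and was at -0.03 with housekeeping centring. PDLIM7, a PDZ and LIM domain protein bound to actin filaments, averaged 9.35 ± 0.11 in senescent and 9.71 ± 0.13 in proliferating cells (SD, n = 5 each) and fell by 0.36 (SE 0.07, limma's adjusted p = 0.0023), while the mean of its 3 tested probe sets, 2 of them dim, differed by 0.02 (adjusted p = 0.85).

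Focal adhesion members did not move together. VCL, the gene of vinculin, which links talin to actin, read 13.68, 13.53, 13.56, 13.57 and 13.46 on its brighter probe set in senescent cells, against 13.24, 13.21, 13.29, 13.30 and 13.21 in proliferating cells, a difference of 0.31 (SE 0.05, limma's adjusted p = 0.00032). Its other probe set read 7.23, 7.18, 7.25, 7.67 and 6.43 in senescent cells, against 8.09, 8.49, 7.55, 7.93 and 7.87 in proliferating cells. This is the opposite direction (-0.83, SE 0.23, limma's adjusted p = 0.012), both probe sets are named as shared, and their mean differed by -0.26 (adjusted p = 0.088). ZYX, the gene of zyxin, which marks strained stress fibres, read 9.99, 9.69, 9.48, 9.70 and 9.73 in senescent cells, against 10.14, 10.75, 9.91, 10.20 and 10.16 in proliferating cells. The groups overlapped slightly, and it fell by 0.51 (SE 0.15, limma's adjusted p = 0.014), against -0.14 (adjusted p = 0.58) with the ACTB covariate. TLN1, the gene of talin 1, which binds integrin tails, read 13.52, 13.55, 13.52, 13.58 and 13.40 in senescent cells, against 13.54, 13.83, 13.29, 13.54 and 13.44 in proliferating cells. Its groups overlapped throughout (-0.01, SE 0.09, limma's adjusted p = 0.90). LPP, a zyxin relative, was not called on its brightest probe set (-0.06, SE 0.05) and was lower on 2 of its 8.

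SRF itself was lower in senescent cells. Its tested probe set read 9.88, 10.02, 9.90, 9.77 and 9.91 in senescent cells, against 10.46, 10.50, 10.51, 10.43 and 10.51 in proliferating cells. The groups were well apart, and SRF fell by 0.59 (SE 0.05, limma's adjusted p = 3.4e-06), with values of -0.69 to -0.55 under the 21 alternatives that gave one; the tested probe set is named as shared, so exclusion of shared probe sets gave none. Its other probe set lay at 1.83 in both groups, below the filter. The 2 CArG boxes printed above lie in the SRF promoter itself.

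Within families, changes were compared gene by gene. For each pair the within-array difference between the 2 representing probe sets was set against the group, with an exact permutation test, two-sided, over the 252 assignments of the arrays and Benjamini-Hochberg adjustment over 17 pairs. Changes were unequal in 11 pairs, and in 6 to 8 when any single array was left out. TAGLN against TAGLN2 differed in change by 1.33 (SE 0.16), TPM1 against TPM4 by 0.42 (SE 0.06) and TPM2 against TPM4 by 0.41 (SE 0.07), and in these 3 pairs one gene was called higher and the other lower (exact permutation p = 0.00794 each, adjusted p = 0.022). MYH9 against MYH10 differed by 1.11 (SE 0.11), since both fell but MYH10 further, and MYL6 against MYL9 by -0.44 (SE 0.04), each with the same exact permutation p. On the dimmer probe sets of MYL6 and MYL9 the order was reversed, with MYL6 at 0.42 and MYL9 at 0.02. The actins ACTA2 and ACTG2 differed in change by -0.23 (SE 0.04, exact permutation p = 0.00794, adjusted p = 0.022). Weaker inequality was found for CNN1 against CNN2 (0.60, SE 0.17) and ZYX against LPP (-0.45, SE 0.18), both with an adjusted exact permutation p = 0.034, and for PDLIM5 against PDLIM7 (0.27, SE 0.09, adjusted exact permutation p = 0.045). With the mean of each gene's probe sets the last pair was reversed, with PDLIM5 at -0.36 and PDLIM7 at 0.02. ACTA2 against ACTC1 (-0.78, SE 0.30) and MYH10 against MYH11 (-0.84, SE 0.30) lay just under the threshold (adjusted exact permutation p = 0.049 each). MYH11 was read there from its brightest probe set, whereas 3 others were called higher. TPM1 and TPM2 differed in change by 0.01 (SE 0.02, exact permutation p = 0.62), and ACTN1 and ACTN4 by 0.08 (SE 0.13, exact permutation p = 0.49), which does not show that these genes act alike. The smallest p that 5 against 5 arrays allow is 0.00794.

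**Figure D3:**
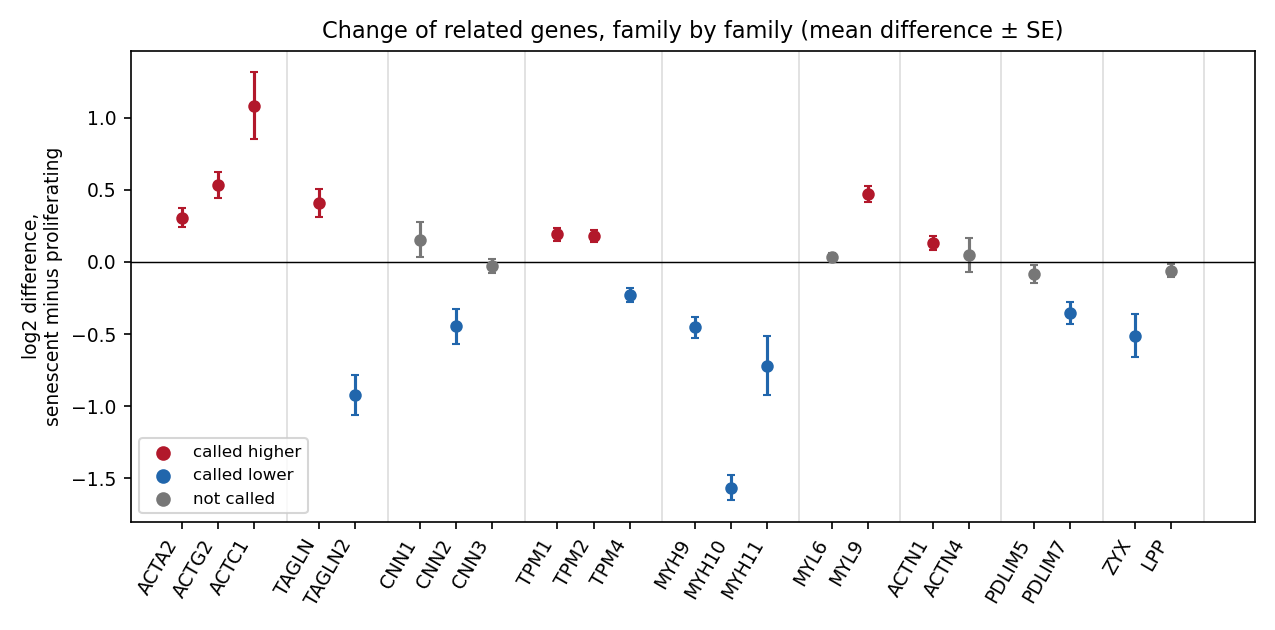
Log2 difference of senescent minus proliferating means (vertical axis) with limma's SE as error bars, for the representing probe set of each family member, n = 5 arrays per group. Red, blue and grey mark genes called higher, called lower and not called. TAGLN stands at 0.41 and TAGLN2 at -0.92, TPM1 and TPM2 at 0.19 and 0.18 and TPM4 at -0.23, and MYH10 lies lowest at -1.56.

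Probe sets of a gene often differed in size of change, and the array reads many of these genes near its upper end. Of the 33 representing probe sets 14 averaged 13 or more, a level reached by 2.35% of all tested probe sets. Among 15 member genes with at least 2 probe sets called in a single direction, the brightest had the smallest difference in 8 (53.3%), against 47.5% of 3559 such genes on the array. Members with called probe sets of opposite direction were MYH11, PALLD and VCL, 3 of 18 genes (16.7%), against 6.64% of 3812 genes. Whether a ceiling of the signal or transcript forms account for such spreads was not tested.

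**Figure D4:**
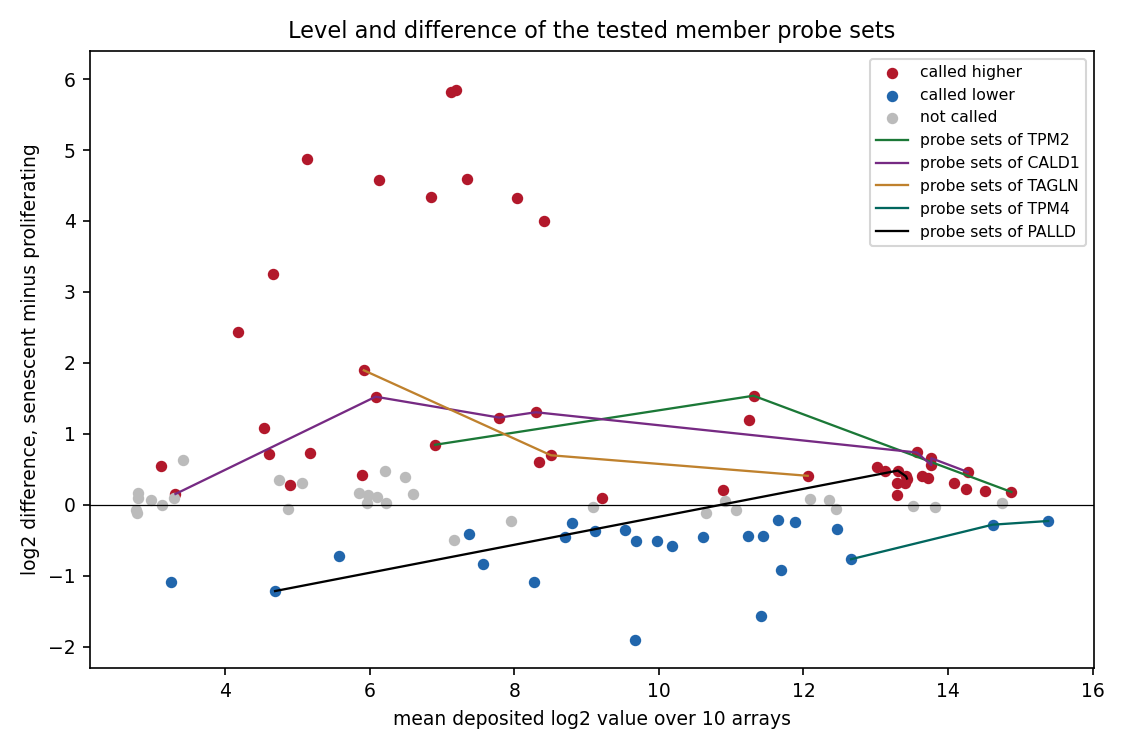
The 103 tested member probe sets by mean deposited log2 value over 10 arrays (horizontal axis) and log2 difference of senescent minus proliferating means (vertical axis), coloured by call. Lines join the called probe sets of single genes: TPM2 runs from 0.84 through 1.54 to 0.18 and TAGLN from 1.89 to 0.41 as the level rises, and PALLD from -1.22 to between 0.37 and 0.48.

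The wider pathway was read from 5 further lists with 140 genes outside the members, of which 115 were tested, 38 rose and 39 fell. Each of these genes was read from the brightest of its tested probe sets alone. Whether its other probe sets agree is not reported here. That is 67.0% called, near the 60.2% of all genes (30.5% higher and 29.8% lower), and the lists below are to be read against these shares. Among 18 SRF partners and regulators 2 rose and 8 fell (55.6% called, against 60.2% of all genes; median -0.21). MYOCD, the gene of myocardin, averaged 5.30 ± 0.30 in senescent and 8.07 ± 0.09 in proliferating cells (SD, n = 5 each) and fell by 2.77 (SE 0.13, limma's adjusted p = 4.8e-08). The MRTF coactivator genes went opposite ways, with MRTFA higher by 1.00 (SE 0.13) and MRTFB lower by 0.88 (SE 0.12). HOPX, a homeodomain protein known from mouse heart to restrain SRF, rose by 1.96 (SE 0.24), and TEAD4, a partner of YAP and TAZ, fell by 3.13 (SE 0.13), with all 5 senescent values below the 60th percentile.

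Among 22 tested genes of cytoplasmic actins and actin turnover 10 rose and 7 fell (77.3% called, against 60.2% of all genes; median 0.04). TMOD1, which caps the slow-growing end of actin filaments, averaged 9.51 ± 0.20 in senescent and 3.88 ± 0.94 in proliferating cells (SD, n = 5 each), a rise of 5.64 (SE 0.39, limma's adjusted p = 8.2e-07). All 5 proliferating values of TMOD1 were below the 60th percentile, so that this size depends on the background correction. TMOD2 and the supervillin gene SVIL rose by 1.73 (SE 0.13) and 1.49 (SE 0.09). TMOD3, LIMA1 and the thymosin gene TMSB10 fell by 0.20, 0.21 and 0.21. ACTB, the main cytoplasmic actin, averaged 15.06 ± 0.06 in senescent and 15.11 ± 0.03 in proliferating cells (SD, n = 5 each) and was not called (-0.06, SE 0.04, limma's adjusted p = 0.28).

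Focal adhesion genes outside the members rose in 8 and fell in 12 of 30 tested cases (66.7% called, against 60.2% of all genes; median -0.07). The tensin gene TNS3, the parvin gene PARVB and PPFIA1 rose by 0.68, 0.57 and 0.50, and TES, whose product testin binds zyxin, fell by 1.16 (SE 0.05), with the kindlin gene FERMT1 at -0.94 (SE 0.22) and TGFB1I1, a paxillin relative known as Hic-5, at -0.82 (SE 0.09). Paralogues of the members rose in 8 and fell in 5 of 20 tested cases (65% called, against 60.2% of all genes; median 0.05). The light chain gene MYL5, the myopalladin gene MYPN and PDLIM1 rose by 2.54 (SE 0.29), 1.69 (SE 0.17) and 1.28 (SE 0.06). For MYL5 and for MYPN, 3 of the 5 proliferating values were below the 60th percentile, so that these sizes depend on the background correction. SYNPO2L, a relative of SYNPO2, fell by 2.44 (SE 0.21), and the CSRP1 relative CSRP2 fell by 2.41 (SE 0.05). PDLIM3 was called lower, but its 5 senescent values (2.18 ± 0.07 SD) lay below the 40th percentile, against 3.96 ± 0.86 in proliferating cells (SD, n = 5 each), so the size of its fall is not known.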

How the data were processed

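The authors deposited 1 log2 value per probe set and array. Partek and GCRMA appear in the submitters' processing notes, without version, role or order, with settings not given in the sources used here. Labelling followed the Affymetrix manual, per the labels' protocols. That the base is 2 was inferred from the span of the uncentred values, and detection calls and scan dates were not used here. Of 54675 probe sets 62 were controls and 41091 had 1 symbol, updated through gene identifiers (RefSeq, GRCh38.p14). Members, lists and alternatives were chosen with earlier results of these data known.

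The filter kept probe sets with values over the 40th percentile of the array on 5 or more of 10 arrays. Senescent minus proliferating means were tested two-sided with limma 3.58.1 in R 4.3.3 (lmFit, eBayes), adjusted over 32732 probe sets, and single values with exact permutation tests. The 5 lists of pathway genes and 6 of cell markers were described by counts. A single list of pathway genes enters the counts over all 5 lists and is otherwise not reported here. All members were named, and other genes were the 3 called with the largest difference in each direction of a list, plus ACTB, MRTFA, MRTFB and MYOCD. Values on every array were given for the 12 largest called differences, for genes whose probe sets disagreed and for core components.

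Data were simulated over 32732 probe sets, with 50 of them changed at each size. Of changes of 0.5 (log2) 32% were called, of 1 86% and of 2 and 4 100%, with 9 of 168 calls false. In the real data 53.0% of tested probe sets were called, so the adjusted threshold was less strict there. The simulated shares therefore do not give the power of the real comparison. The arrays' number limits the precision. Alternatives changed the filter (none, or the 60th percentile), the centring (tested or housekeeping probe sets), the fit (quantile normalised values, array weights, robust eBayes with a trend, a replicate block, the ACTB 3′ minus 5′ covariate), the probe sets (averaged, or without shared ones) and the arrays left out. Figures used Python 3.11.15 and matplotlib 3.10.9.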

Additional observations from a re-analysis of the deposited data

Results flagged for a closer look

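Among 66 sets of 5 arrays (33 genes in 2 groups) 10 held an array far from the other 4 by Dixon's ratio, where chance flags about 1 in 20. On array proliferating 5, ACTA2 was low at 12.91 (others 13.15 to 13.24) and LMOD1 at 4.22 (others 4.86 to 5.05). On proliferating 2, CNN2 was high at 11.89 (others 11.58 to 11.66) and CSRP1 at 12.61 (others 12.20 to 12.29), and this array had the lowest ACTB 3′ minus 5′ difference, 1.85. On senescent 5, MYH10 was high at 10.73 (others 10.59 to 10.62) and ACTN4 at 11.32 (others 10.80 to 10.93). Single flags were ACTG2 on senescent 3 at 13.42 (others 13.23 to 13.28), ACTN1 on senescent 4 at 13.43 (others 13.33 to 13.36), MYL6 on proliferating 3 at 14.78 (others 14.72 to 14.73) and SYNPO2 on proliferating 1 at 6.04 (others 6.43 to 6.55).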

How the results depend on the processing

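Of 25 called member genes 10 kept direction and call under every alternative that gave a value for them: ACTG2, TAGLN2, CALD1, MYH9, MYH10, MYLK, PPP1R12A, LIMCH1, SYNPO2 and SRF. Without probe sets named as shared, 25 member probe sets were higher and 9 lower and 6 member genes lower, with fewer probe sets tested, and 25 pathway list genes were lower. With the ACTB covariate 14 member probe sets, 6 member genes and 24 pathway list genes were lower. The count of family pairs with unequal change was 6 to 8 when an array was left out, where the smallest p rises to 0.0159. Centring on housekeeping genes moved the median of all tested probe sets to -0.07, against 0.03, and the share of higher calls to 40.9%, against 50.7%, and gave 10 member genes higher and 10 lower. It did not make the housekeeping genes more equal, since their median difference went to -0.19, against -0.09. Calls lost in this setting are to be read with that limit. Same-numbered arrays deviated together with correlations of only -0.06 to 0.09, so these values show no pairing by number. They cannot exclude one, and the labels do not say whether equal numbers share a culture. The replicate block gave 48 member probe sets higher and 26 lower, and changed the call of ACTN1 alone among member genes (limma's adjusted p = 0.071). A paired permutation of the family pairs was not run, since its smallest p is 0.0625.

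Signs reversed as follows, and for all but PALLD, MYH11, PDLIM7 and VCL the gene was not called in either direction; the cause was not tested. With tested-median centring CNN3 was at 0.0023 and TLN1 at 0.017, and with housekeeping centring MYL6 was at -0.069, ACTN4 at -0.051 and CSRP1 at -0.029. Quantile normalisation gave CNN3 0.011 and MYL6 -0.015, and array weights gave TLN1 0.040. Without shared probe sets PALLD was at -1.22 and TLN1 at 0.16, the ACTB covariate gave TLN1 0.17 and 4 against 4 arrays, without proliferating 2 and senescent 5, gave TLN1 0.090. Averaging the probe sets of each gene gave CNN3 0.026, MYH11 0.20, PDLIM7 0.016, VCL -0.26 and TLN1 0.072. Leaving out an array gave values of -0.074 to 0.062 for TLN1 (0.014 without senescent 5), -0.046 to 0.11 for ACTN4 (-0.0044 without proliferating 3) and -0.061 to 0.0017 for CNN3.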
